A study of Mus musculus with 6 samples.

Results

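The genes described here are 10 collagen genes whose products do not form the classic striated fibrils: the collagen VI chains *Col6a1*, *Col6a2* and *Col6a3*, the anchoring-fibril collagen *Col7a1*, the fibril-associated collagens *Col12a1* and *Col14a1*, the transmembrane collagen *Col13a1*, the basement membrane collagens *Col15a1* and *Col18a1*, and *Col28a1*, a collagen related in domain structure to collagen VI. They were chosen by name and found in the deposited count table by Ensembl identifier, with the version left off. All 10 were among the 22318 genes tested of 55401 listed. *Col7a1* lies on the same chromosome as *Plxnb1*, the gene that was disrupted.

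The samples were bulk poly(A) RNA-seq libraries of Schwann cells (SCs), the glia that ensheathe and myelinate peripheral axons, cultured from adult mouse dorsal root ganglia. Of the cultures, 3 were labelled WT and 3 *Plxnb1*-/-. *Plxnb1* encodes Plexin-B1, a receptor for semaphorins. The knockout allele carries a gene-trap cassette with a transmembrane domain, lacZ and neo, and is present in all cells of the body. Mice were kept on a C57BL/6 background. The study took both WT and heterozygous littermates as controls in its experiments, while the control libraries here are labelled WT. Both genotypes grew on poly-L-lysine and laminin in medium with 2 µM forskolin, 10 nM neuregulin and 10% FBS, fibroblasts were removed with a magnetic anti-Thy1 step, and cells were used at passages 3 to 5 at a stated purity of over 80%. Nothing in the labels says which cultures came from separate animals, so p-values measure the spread between these cultures, which may be partly technical. The sex of the mice is not given in the sources used here.

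Collagen VI is secreted as a heterotrimer of its 3 chains that assembles into beaded microfilaments around cells, and peripheral nerve matrix is rich in it. Collagen VII forms the anchoring fibrils that tie basement membranes to the stroma beneath. Collagens XII and XIV bind to the surface of fibrils (FACIT collagens), collagen XIII sits in the plasma membrane, collagens XV and XVIII carry glycosaminoglycan chains and belong to basement membrane zones, and collagen XXVIII is known for its place around SCs and nodes of Ranvier in peripheral nerve. SCs build a basal lamina as they mature, and they are themselves a source of many of these chains.

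The libraries held between 59252048 and 77280964 counts on exons. Levels are given as CPM, counts scaled to the total of the library and corrected by TMM factors of 0.988 to 1.01. Together the 10 genes took between 0.736% and 0.841% of all counts. *Plxnb1* itself measured 61.8, 45.4 and 96.4 CPM in WT replicates 1, 2 and 3, against 13.1, 16.6 and 18.6 CPM in *Plxnb1*-/- replicates 1, 2 and 3, a log2 fold change of -2.08 ± 0.25 (SE) with an adjusted p of 0.0449 (edgeR quasi-likelihood, Benjamini-Hochberg over all tested genes). SC markers were present, with *Sox10* at 518 CPM on average and *S100b* lower at 7.60 CPM. The summed level of the 12 SC markers lay between 3874 and 4524 CPM in WT and between 4560 and 5066 CPM in *Plxnb1*-/- cultures. Of the fibroblast markers, *Thy1* and *Dcn* averaged 462 and 281 CPM, while *Clec3b*, *Dpt* and *Pi16* were each under 1 CPM. Which cells these reads came from was not tested. Because these are bulk samples, fewer cells of a type and less RNA per cell cannot be told apart.

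Across the 10 genes, the fitted difference between genotypes (*Plxnb1*-/- minus WT) was below 0 for 6 and above 0 for 4, with a median of -0.20 on the log2 scale, against 0.00496 over all tested genes, of which 48.5% were below 0. The 3 collagen VI chains and *Col7a1* were lower in every *Plxnb1*-/- culture than in every WT culture, by between 20.6% and 38.9% of the WT mean, and *Col13a1* was too at a far lower level. *Col28a1* was the only one of the 10 that was higher in every *Plxnb1*-/- culture. The genotypes overlapped for *Col12a1*, *Col14a1*, *Col15a1* and *Col18a1*. So 5 genes had *Plxnb1*-/- below WT without overlap and 1 had it above, where 10.4% and 9.3% of all tested genes did (19.7% in either direction).

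A call asked for an adjusted p under 0.05 together with a log2 fold change beyond 0.25 in either direction. By edgeR, 0 of the 10 genes were called, where 0.0358% of all tested genes were. Their adjusted p-values ran from 0.113 to 0.983, and 6 of the 10 had an unadjusted p below 0.05, as 13.7% of all tested genes had. DESeq2, the tool that the study's methods name, called 4 of the 10, all lower in *Plxnb1*-/-: *Col6a1*, *Col6a2*, *Col6a3* and *Col7a1*. DESeq2 called 2.24% of the genes to which it gave an adjusted p, 1.21% as lower and 1.03% as higher. The same 4 genes were called by edgeR when no filter on low counts was used. They are also among the genes that the study called differentially expressed in these libraries, so their direction here is not independent evidence.

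**Figure D1:**
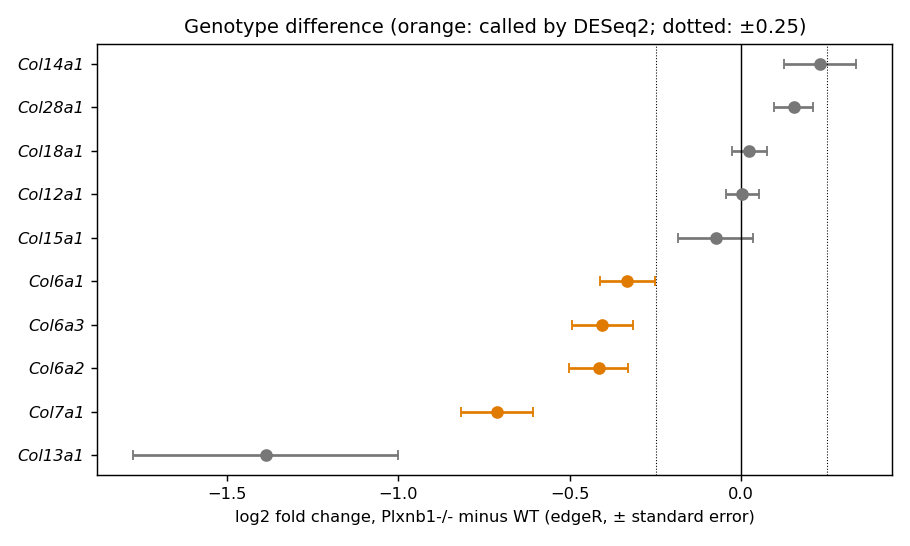
Log2 fold change of each gene, *Plxnb1*-/- minus WT, from edgeR, with bars of 1 standard error, from 3 cultures per genotype. Orange points are genes that DESeq2 called, and dotted lines mark 0.25 in either direction. *Col13a1* at -1.39 has the widest bar, *Col7a1* and the collagen VI chains lie below 0, and *Col12a1* and *Col18a1* lie at 0.00 and 0.02.

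The 3 chains of collagen VI were all lower in *Plxnb1*-/- cultures, by log2 fold changes between -0.42 and -0.33. *Col6a1* (chr10:76708792-76726168 on GRCm38, minus strand), which encodes the alpha1 chain, stood at 427, 487 and 404 CPM in WT replicates 1, 2 and 3 and at 339, 383 and 325 CPM in *Plxnb1*-/- replicates 1, 2 and 3. The lowest WT culture was above the highest *Plxnb1*-/- culture. The mean was 440 ± 42.7 in WT and 349 ± 29.8 CPM in *Plxnb1*-/- (SD, n = 3 each). The log2 fold change was -0.33 ± 0.08 (SE), with a 95% interval from -0.51 to -0.15 and an adjusted p of 0.266 by edgeR. DESeq2 gave it an adjusted p of 0.0119.

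*Col6a2* (chr10:76595762-76623630, minus strand), the alpha2 chain gene near *Col6a1* on the same strand, measured 314, 373 and 309 CPM in the WT cultures and 243, 275 and 229 CPM in the *Plxnb1*-/- cultures. Again WT replicate 2 was highest and *Plxnb1*-/- replicate 3 lowest. The mean was 332 ± 35.5 CPM against 249 ± 23.5 CPM (SD, n = 3 each), a log2 fold change of -0.42 ± 0.09 (SE; 95% interval -0.61 to -0.22). The adjusted p was 0.256 by edgeR and 0.00146 by DESeq2.

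*Col6a3* (chr1:90765923-90843971, minus strand), which lies on another chromosome and encodes the long alpha3 chain, measured 1411, 1719 and 1519 CPM in WT and 1153, 1301 and 1056 CPM in *Plxnb1*-/- cultures. The genotypes did not overlap. The mean was 1550 ± 156 CPM against 1170 ± 123 CPM (SD, n = 3 each), a log2 fold change of -0.41 ± 0.09 (SE; 95% interval -0.61 to -0.20). The adjusted p was 0.266 by edgeR and 0.00260 by DESeq2.

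The DESeq2 calls of the collagen VI genes depended on *Plxnb1*-/- replicate 3, the culture in which all 3 were lowest. So did most DESeq2 calls over all genes, which fell from 335 to 51 without that culture. None of the 3 chains was among those 51. Their adjusted p-values were 0.314 for *Col6a1*, 0.0897 for *Col6a2* and 0.113 for *Col6a3*, with log2 fold changes of -0.29, -0.36 and -0.34. Without *Plxnb1*-/- replicate 1, *Col6a1* was not called either (adjusted p 0.0869). The log2 fold changes were nearest to 0 without WT replicate 2, the culture in which all 3 were highest, at -0.25, -0.32 and -0.32 by edgeR. In that fit DESeq2 still called all 3 (adjusted p 0.0354, 0.0030 and 0.0092).

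The letters in front of the transcription starts of the chains are given so that the upstream sequences of the 3 chains can be compared. RefSeq promoter sequences (GRCm38.p6, 250 bases upstream of each start) were found for 8 of the 10 genes, all but *Col12a1* and *Col14a1*, and were searched on both strands for an AP-1 site (TGANTCA, in 6.75% of 32851 promoters), a GC box (GGGCGG, 32.7%), a Sox site (ACAAAG, 16.5%) and an Egr site (GCGTGGGCG, 0.536%). Capitals mark a match, which is a description of the letters and not of binding. They are printed on the strand of the gene, 5′ to 3′. *Col6a2* and *Col18a1* have 2 RefSeq starts each, and only the one nearest to the annotated start of the gene was searched. For *Col6a1* only the 126 bases outside the annotated gene (chr10:76726169-76726294) and a stretch of 27 bases around its AP-1 match (chr10:76726118-76726144), which begins 90 bases before the RefSeq start, are shown.
Col6a1 upstream: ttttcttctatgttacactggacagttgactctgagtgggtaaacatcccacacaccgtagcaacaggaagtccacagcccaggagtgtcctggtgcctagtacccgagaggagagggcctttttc
Col6a1 AP-1 match: gctgatgctgTGACTCActcagctttg
Col6a2 upstream (chr10:76623631-76623880, minus strand): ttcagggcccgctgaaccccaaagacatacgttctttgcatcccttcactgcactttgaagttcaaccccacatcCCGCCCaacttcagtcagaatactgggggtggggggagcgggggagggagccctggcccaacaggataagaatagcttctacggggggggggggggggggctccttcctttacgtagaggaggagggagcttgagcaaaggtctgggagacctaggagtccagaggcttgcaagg
Col6a3 upstream (chr1:90843972-90844221, minus strand): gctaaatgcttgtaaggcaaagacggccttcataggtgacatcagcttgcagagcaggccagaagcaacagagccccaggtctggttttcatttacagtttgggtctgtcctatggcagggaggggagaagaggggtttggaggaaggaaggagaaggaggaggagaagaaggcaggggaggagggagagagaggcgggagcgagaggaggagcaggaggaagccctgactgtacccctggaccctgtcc
*Col6a2* held 1 GC box, which begins 175 bases before the start and reads as its reverse complement here, and *Col6a3* held no match. None of these 4 motifs was found upstream of all 3 chains.

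The ratio between chains was read on the scale of CPM per kilobase of exon, since counts of different genes compare only per length. *Col6a2* stood at 0.397 ± 0.0094 of *Col6a1* in WT and 0.375 ± 0.0042 in *Plxnb1*-/- cultures (SD, n = 3 each). The genotypes did not overlap, and the exact two-sided permutation test gave p = 0.1, the smallest that 3 against 3 allows. *Col6a3* stood at 1.29 ± 0.0832 times *Col6a1* in WT and 1.23 ± 0.0328 times in *Plxnb1*-/- (exact p = 0.3), and at 3.25 ± 0.149 and 3.27 ± 0.0517 times *Col6a2* (exact p = 0.9). The log2 differences of these 3 ratios between genotypes were -0.08, -0.07 and 0.01. The ratios themselves depend on the length used, and their log2 differences do not. The aligner did not span introns, which lowers counts at exon junctions, so the ratios also depend on how each gene is cut into exons. Per kilobase of the principal transcript, *Col6a2* stood at 0.784 ± 0.0186 of *Col6a1* in WT and 0.740 ± 0.0083 in *Plxnb1*-/- cultures, and *Col6a3* at 2.05 ± 0.0939 and 2.06 ± 0.0326 times *Col6a2* (SD, n = 3 each). Over the 7 ratios computed, Benjamini-Hochberg adjusted values ran from 0.175 to 0.9.

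**Figure D2:**
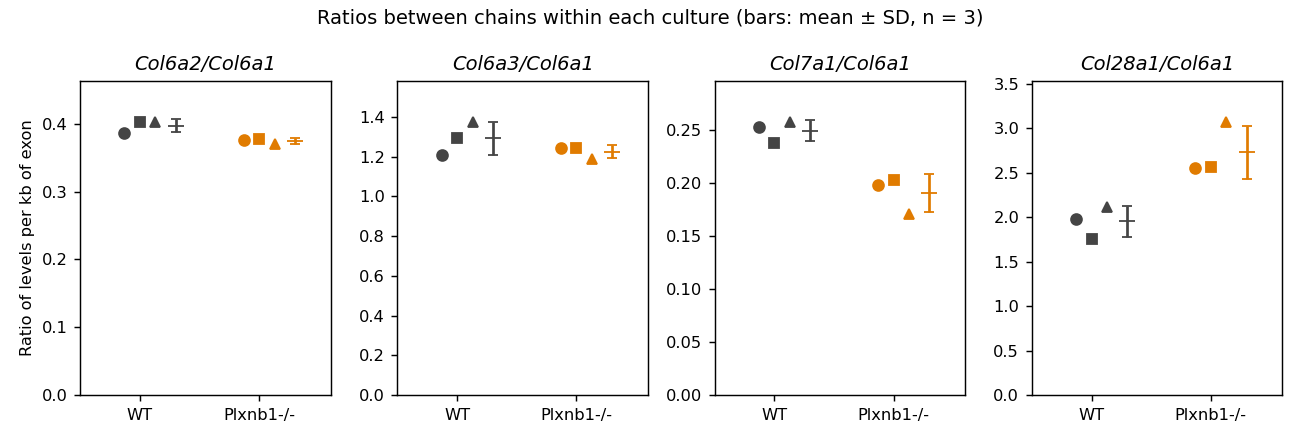
Ratios of *Col6a2*, *Col6a3*, *Col7a1* and *Col28a1* to *Col6a1* per kilobase of exon, with 1 point per culture (3 WT, 3 *Plxnb1*-/-) and bars for the mean ± SD. The ratios within collagen VI lie close together between genotypes, while *Col28a1* to *Col6a1* is between 1.76 and 2.11 in WT and between 2.55 and 3.07 in *Plxnb1*-/- cultures. That separation follows from *Col28a1* being higher and *Col6a1* lower in every *Plxnb1*-/- culture.

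The summed level of the 3 chains was 2152, 2579 and 2233 CPM in WT and 1735, 1958 and 1611 CPM in *Plxnb1*-/- cultures. The summed level of 10 fibroblast markers was 1031, 1543 and 1205 CPM in WT and 1051, 1048 and 1028 CPM in *Plxnb1*-/-. Of the 10, 9 were below 0 (median log2 fold change -0.23) and 3 were lower without overlap. Among all tested genes these shares were 48.5% and 10.4%. WT replicate 1, at 1031 CPM, lay within the *Plxnb1*-/- range of the fibroblast sum, but the single markers differed. In that culture *Thy1*, *Pdgfra*, *Mfap5* and the low *Dpt* were above every *Plxnb1*-/- culture. *Dcn* and *Fbln1* were below every one, and *Lum*, *Fap*, *Pi16* and *Clec3b* were within the *Plxnb1*-/- range. WT replicate 2 was the highest culture on both sums. The part of fibroblast RNA in the collagen VI difference was not tested.

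**Figure D3:**
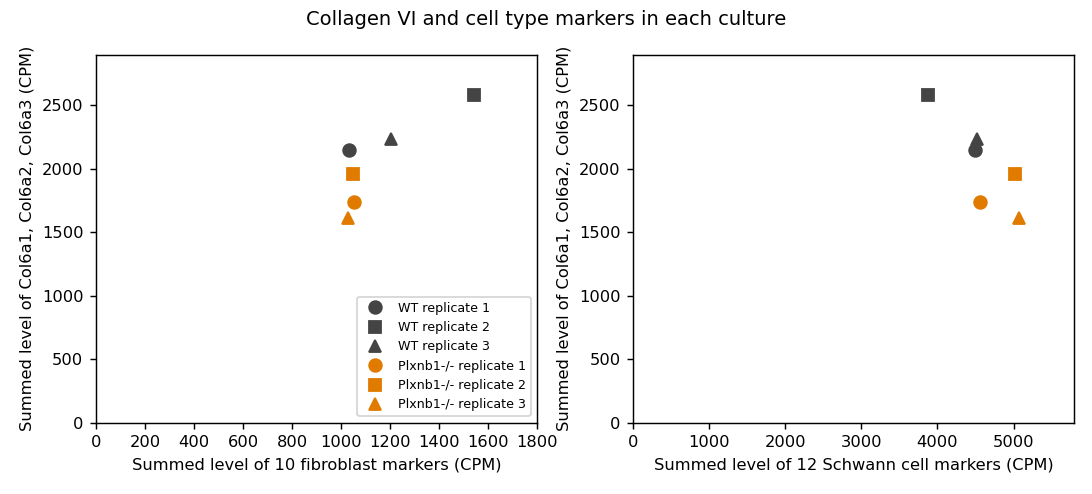
Summed CPM of *Col6a1*, *Col6a2* and *Col6a3* against the summed CPM of 10 fibroblast markers and of 12 SC markers, with 1 point per culture. The 3 *Plxnb1*-/- cultures lie between 1611 and 1958 CPM of collagen VI, below the 3 WT cultures at 2152 to 2579 CPM.

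*Col7a1* had the largest difference among the genes above 1 CPM. Its product is the long homotrimer of anchoring fibrils. The gene (chr9:108953586-108984875, plus strand) ends 0.1105 Mb before *Plxnb1* begins (chr9:109095389-109119917, plus strand). It measured 254, 273 and 245 CPM in WT and 158, 183 and 130 CPM in *Plxnb1*-/- cultures, so that the lowest WT culture was well above the highest *Plxnb1*-/- culture. The mean was 257 ± 14.2 CPM against 157 ± 26.2 CPM (SD, n = 3 each). The log2 fold change was -0.71 ± 0.11 (SE; 95% interval -0.95 to -0.47), with an unadjusted p of 8.59e-05 and an adjusted p of 0.113 by edgeR. DESeq2 gave an adjusted p of 2.86e-08 and called it in 6 of 6 fits that each left out 1 culture (largest adjusted p 0.0240).

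Its upstream sequence is shown because this gene had the largest difference of the 8 with a promoter sequence and more than 1 CPM. It holds 1 GC box, which begins 61 bases before the start (chr9:108953336-108953585, plus strand, capitals).
Col7a1 upstream: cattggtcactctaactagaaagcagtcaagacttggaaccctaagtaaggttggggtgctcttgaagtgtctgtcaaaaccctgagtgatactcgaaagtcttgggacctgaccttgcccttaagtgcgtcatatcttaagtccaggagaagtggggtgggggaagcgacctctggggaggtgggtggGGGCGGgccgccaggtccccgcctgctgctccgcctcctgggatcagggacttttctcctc
Within *Col7a1* lies *Mir711*, a miRNA gene on the same strand, whose 82-base hairpin (chr9:108969922-108970003) shares 36 bases with *Col7a1* exons. Its mature form in RefSeq, with the seed (bases 2 to 8) in capitals, shows which miRNA is meant.
mmu-miR-711 (chr9:108969970-108969991): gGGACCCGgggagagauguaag
Counts on *Mir711* were 3.34, 3.08 and 3.02 CPM in WT and 2.15, 2.06 and 1.54 CPM in *Plxnb1*-/- cultures, a log2 fold change of -0.71 like that of *Col7a1* (adjusted p 0.255 by edgeR, 0.00595 by DESeq2). Poly(A) libraries do not measure mature miRNAs, and reads on the hairpin cannot be told apart from reads of the *Col7a1* transcript.

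Of the 11 tested genes with at least 1 CPM that start (by lower coordinate) within 250 kb of *Plxnb1*, 7 were below 0 and 4 above. In 4 of them every *Plxnb1*-/- culture was below every WT culture (*Col7a1*, *Mir711*, *Tma7* and *Ccdc51*), and in 0 it was above, where 10.4% and 9.3% of all tested genes were. DESeq2 called 2, *Col7a1* and *Mir711*. As reads on *Mir711* cannot be told apart from those of *Col7a1*, these counts may hold the same signal more than once. *Tma7* had a DESeq2 adjusted p of 0.0180, and its fold change was under the 0.25 asked of a call. The fitted log2 fold changes of the genes between *Col7a1* and *Plxnb1*, none called, were: *Pfkfb4*, a regulator of glycolysis, 0.08, *Shisa5* -0.03, *Trex1*, a DNA exonuclease, 0.18, *Atrip*, a partner of the ATR kinase, 0.11, *Tma7* -0.22 and *Ccdc51* -0.21, while *Ucn2*, a stress peptide gene, had 0.39. Upstream of *Col7a1*, *Uqcrc1*, a subunit of respiratory complex III, had -0.05 and *Slc26a6* -0.01. Within 10 Mb of *Plxnb1*, DESeq2 called 21 of 184 genes with an adjusted p (11.4%), 15 of them lower, against 2.24% called and 1.21% called lower of all genes with an adjusted p. The disrupted allele and the DNA inherited with it differ between the genotypes together, so an effect of Plexin-B1 loss and one of linked sequence on *Col7a1* cannot be told apart. *Col12a1*, on the same chromosome 29.4 Mb away, had a log2 fold change of 0.00.

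**Figure D4:**
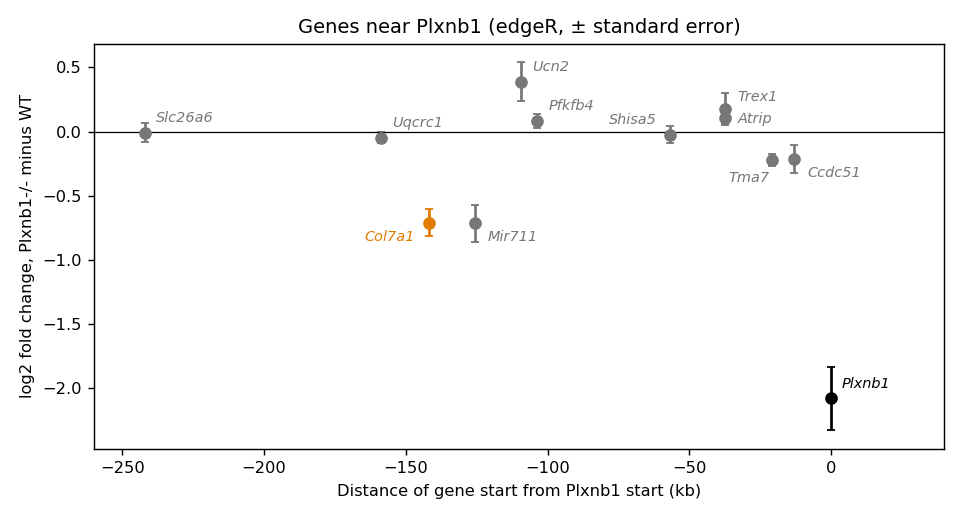
Log2 fold change, *Plxnb1*-/- minus WT, of tested genes with at least 1 CPM that start within 250 kb of *Plxnb1*, against the distance of their start from that of *Plxnb1* in kb, with bars of 1 standard error from edgeR. Start means the lower coordinate, which is the 3′ end of the minus-strand genes *Trex1*, *Atrip* and *Tma7*. *Col7a1* and *Mir711*, both at -0.71, lie below the 9 other neighbours, which range from -0.22 to 0.39.

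The ratio of *Col7a1* to *Col6a1* per kilobase of exon was 0.25 ± 0.0101 in WT and 0.191 ± 0.0177 in *Plxnb1*-/- cultures (SD, n = 3 each), with no overlap (exact p = 0.1, the smallest possible). The log2 difference of this ratio was -0.39. The order of the cultures was the same for *Col6a1*, *Col6a2*, *Col7a1* and *Col13a1*: from high to low, WT replicates 2, 1 and 3, then *Plxnb1*-/- replicates 2, 1 and 3. These genes share the same libraries, so the shared order is given as a description.

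*Col13a1* (chr10:61838236-61979108, minus strand), the transmembrane collagen known from cell adhesion and the neuromuscular junction, was by far the lowest of the 10. It had 32, 55 and 31 counts in WT and 17, 24 and 11 counts in *Plxnb1*-/- cultures, or 0.500, 0.940 and 0.438 CPM against 0.217, 0.331 and 0.159 CPM. The smallest level taken as detected, 3 counts, is 0.0388 to 0.0506 CPM, for counting error only. The genotypes did not overlap, and the log2 fold change was -1.39 ± 0.39 (SE; 95% interval -2.26 to -0.51) with an adjusted p of 0.273 by edgeR. DESeq2 gave no adjusted p for it, and without WT replicate 2 the value was -0.98.

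Neither FACIT collagen passed the test, and their fitted values differed. *Col12a1* (chr9:79598991-79718831, minus strand), a binder of collagen I fibrils, measured 858, 829 and 820 CPM in WT and 802, 828 and 883 CPM in *Plxnb1*-/- cultures, with the *Plxnb1*-/- cultures on both sides of the WT range. The log2 fold change was 0.00 ± 0.05 (SE), with a 95% interval from -0.11 to 0.11 (adjusted p 0.983 by edgeR). *Col14a1* (chr15:55307750-55520803, plus strand), a regulator of fibril diameter, measured 165, 137 and 156 CPM in WT and 157, 171 and 209 CPM in *Plxnb1*-/- cultures. Only *Plxnb1*-/- replicates 2 and 3 were above all WT cultures, and the log2 fold change of 0.23 ± 0.11 (SE; 95% interval -0.01 to 0.47) did not pass the test (adjusted p 0.379 by edgeR). It was 0.10 without *Plxnb1*-/- replicate 3. The ratio of *Col14a1* to *Col12a1* per kilobase was 0.396 ± 0.0335 in WT and 0.462 ± 0.0468 in *Plxnb1*-/- (SD, n = 3 each; exact p = 0.1).

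The intervals of both basement membrane collagens included 0. *Col18a1* (chr10:77052178-77166548, minus strand), whose C-terminal fragment is endostatin, measured 2885, 2805 and 2973 CPM in WT and 2764, 3064 and 2978 CPM in *Plxnb1*-/- cultures, with overlap throughout. Its log2 fold change was 0.02 ± 0.05 (SE; 95% interval -0.09 to 0.14; adjusted p 0.877 by edgeR). *Col15a1* (chr4:47208161-47313167, plus strand), its close relative, measured 668, 930 and 783 CPM in WT and 686, 777 and 798 CPM in *Plxnb1*-/- cultures. The WT range spanned that of *Plxnb1*-/-, and the log2 fold change was -0.07 ± 0.11 (SE; 95% interval -0.32 to 0.17; adjusted p 0.805). The interval of *Col18a1* thus leaves less room for a difference than that of *Col15a1*. In all, 14 bases of *Col15a1* exons are overlapped by the antisense gene *Gm12426*, and the strand setting of the counting is not given in the sources used here.

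*Col28a1* (chr6:7997808-8192617, minus strand) measured 950, 959 and 957 CPM in WT and 969, 1097 and 1120 CPM in *Plxnb1*-/- cultures. The WT cultures lay within 10 CPM of each other, and *Plxnb1*-/- replicate 1 was just above them. The mean was 955 ± 4.87 CPM against 1062 ± 81.1 CPM (SD, n = 3 each), a log2 fold change of 0.15 ± 0.06 (SE; 95% interval 0.02 to 0.28). It did not pass the test, with an adjusted p of 0.317 by edgeR and 0.195 by DESeq2, and its size is under the 0.25 asked of a call. The ratio of *Col28a1* to *Col6a1* per kilobase was 1.95 ± 0.179 in WT and 2.73 ± 0.297 in *Plxnb1*-/- (exact p = 0.1, the smallest possible). As *Col28a1* was higher and *Col6a1* lower in every *Plxnb1*-/- culture, this ratio had to separate the genotypes. Its p was thus fixed in advance and adds nothing to the values of each gene. The SC marker sum was higher in all *Plxnb1*-/- cultures too, with 11 of 12 markers above 0 (median log2 fold change 0.19) and 4 without overlap. Among all tested genes, 48.5% were below 0 and 9.3% were higher in *Plxnb1*-/- without overlap. The part of the SC marker sum in the *Col28a1* level was not tested.

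Of the 8 promoters only that of *Col28a1* held a Sox match, where 16.5% of 32851 promoters held one, so the match sets this gene little apart. It begins 217 bases before the start, and the sequence (chr6:8192618-8192867, minus strand) is:
Col28a1 upstream: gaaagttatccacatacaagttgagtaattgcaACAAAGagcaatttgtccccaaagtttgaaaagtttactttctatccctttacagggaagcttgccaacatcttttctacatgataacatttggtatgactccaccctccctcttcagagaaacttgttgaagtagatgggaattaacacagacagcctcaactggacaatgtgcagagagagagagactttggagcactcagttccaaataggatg
Of the other promoters searched, that of *Col18a1* held 3 GC boxes and those of *Col13a1* and *Col15a1* held none of the 4 motifs.

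**Figure D5:**
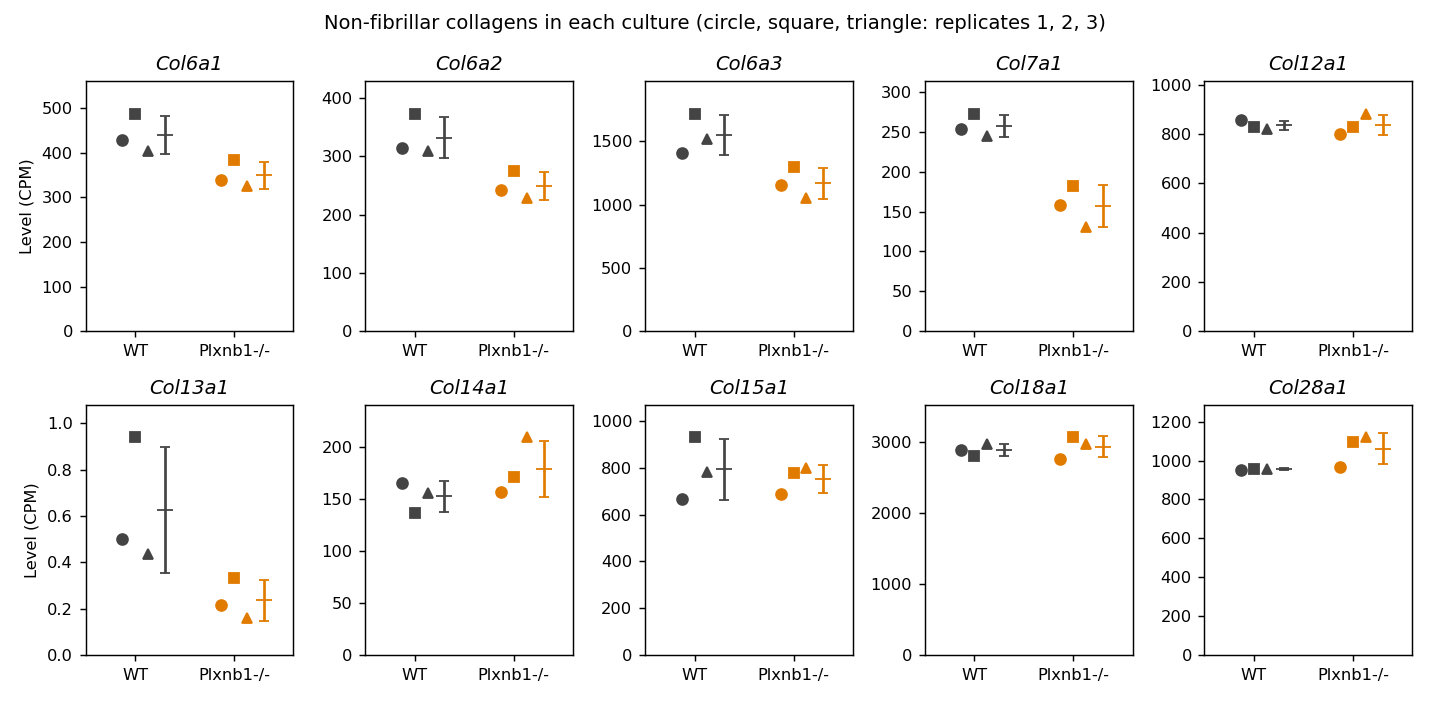
CPM of each of the 10 genes in each culture on axes that start at 0, with circles, squares and triangles for replicates 1, 2 and 3 and bars for the mean ± SD of each genotype. The WT and *Plxnb1*-/- points do not overlap for *Col6a1*, *Col6a2*, *Col6a3*, *Col7a1* and *Col13a1*, which are lower in *Plxnb1*-/-, nor for *Col28a1*, which is higher.

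Per kilobase of exon, the mean over the 6 cultures ordered the genes as *Col18a1* (415 CPM per kb), *Col28a1* (206), *Col15a1* (122), *Col6a3* (114), *Col6a1* (90.0), *Col12a1* (54.9), *Col6a2* (34.9), *Col14a1* (23.6), *Col7a1* (20.1) and *Col13a1* (0.0935). The ranges over cultures overlapped between *Col15a1* and *Col6a3*, between *Col6a3* and *Col6a1*, between *Col6a2* and *Col14a1* and between *Col14a1* and *Col7a1*, while the other neighbours in this order were apart. In each of the 6 cultures *Col6a3* was above *Col6a1*. Overlapping neighbours changed places between genotypes. *Col6a3* was above *Col15a1* in the WT mean (130 against 125 CPM per kb) and below it in the *Plxnb1*-/- mean (97.8 against 119). *Col7a1* was above *Col14a1* in WT (24.99 against 21.7) and below it in *Plxnb1*-/- (15.3 against 25.5). The aligner did not span introns, which lowers counts at exon junctions, so genes cut into many short exons may rank too low. *Col7a1* has 116 exon blocks over 10287 bases and *Col6a3* has 45 over 11963. The size of this effect on the order was not tested. The order also depends on the length used. Per kilobase of the principal transcript, *Col6a3* at 151 came just before *Col15a1* at 149.6 in the mean over the 6 cultures. The exons of *Col6a2* together cover 8326 bases and its principal transcript 3949, and with the latter *Col6a2* stood at 73.6 CPM per kb, level with *Col12a1* at 72.7. *Col18a1* alone made up 32.95% to 38.5% of the counts on the 10 genes.

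Relatives of these genes were also measured. Of the other collagen VI chains, *Col6a4*, *Col6a5* and *Col6a6*, all were under 1 CPM on average, with a summed level of 0.359 to 0.649 CPM per culture. Of 6 tested other FACIT and related collagens, 2 were below 0 and 4 above (median 0.09), and none was called. The 3 other transmembrane collagens were led by *Col23a1*, which averaged 1.84 ± 0.263 CPM over WT and 2.07 ± 0.26 CPM over *Plxnb1*-/- cultures (SD, n = 3 each; log2 fold change 0.17, adjusted p 0.656 by edgeR). Over all 33 tested collagens outside the 10 described, 21 were below 0 and 12 above, with a median of -0.09. DESeq2 called 2 of them, both fibrillar and lower: *Col1a1*, the main fibril chain, with -0.30 (adjusted p 0.0258), and *Col5a3*, a collagen V chain known from nerve, with -0.40 (adjusted p 0.00570). Over all tested genes, 48.5% were below 0, and DESeq2 called 2.24% of those with an adjusted p.

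Genes of proteins that work with these collagens lay on both sides of 0. Among 9 tested matrix partners of collagen VI, 2 were below 0 and 7 above, and DESeq2 called *Tgfbi*, a secreted adhesion protein that binds collagen VI, as higher: 154, 159 and 167 CPM in WT and 180, 188 and 218 CPM in *Plxnb1*-/- cultures (log2 fold change 0.29, DESeq2 adjusted p 0.0210). Of all genes with an adjusted p, DESeq2 called 1.03% as higher. The proteoglycan gene *Bgn*, which helps collagen VI assemble, had -0.20 and overlapped. Among 12 collagen receptors, 7 were below 0 and 5 above and none was called, with the ends of the range at *Cspg4*, which encodes the collagen VI receptor NG2, with -0.29, and *Lair1* with 0.23.

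Of the 8 partners of the anchoring fibril, 3 were below 0 and 5 above (median 0.16). *Itgb4*, the beta4 integrin that anchors SCs and epithelial cells to laminin, measured 108, 88.5 and 104 CPM in WT and 118, 130 and 153 CPM in *Plxnb1*-/- cultures, with no overlap. Its log2 fold change was 0.42 ± 0.10 (SE; adjusted p 0.266 by edgeR, 0.00706 by DESeq2). Of 5 partners of the FACIT collagens, *Tnc*, the matrix glycoprotein tenascin-C, was called by DESeq2 as lower, with -0.28 (adjusted p 0.00566), and *Fmod* had 0.27 with overlap. Over all genes with an adjusted p, DESeq2 called 1.21% as lower and 1.03% as higher.

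For the enzymes and chaperones that fold, hydroxylate and export collagen chains, 16 of 20 were below 0, with a median of -0.13 on the log2 scale. Of these genes, 10 were lower in every *Plxnb1*-/- culture than in every WT culture. Over all tested genes, 48.5% were below 0 and 10.4% were lower in *Plxnb1*-/- without overlap. Neither tool called any of the 20. *Plod2*, a lysyl hydroxylase, measured 454, 529 and 429 CPM in WT and 424, 391 and 370 CPM in *Plxnb1*-/- cultures (log2 fold change -0.25, adjusted p 0.290 by edgeR). Of 12 proteases that process or shed collagens, 10 were below 0 (median -0.11). DESeq2 called *Tll1*, a relative of the procollagen C-proteinase BMP1, with -0.56 (adjusted p 1.3e-06), and the gelatinase gene *Mmp9* with -0.87 (adjusted p 0.00955), both without overlap. *Mmp2*, the other gelatinase, had 0.09. Of all genes with an adjusted p, DESeq2 called 2.24%, and 1.21% as lower.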

How the data were processed

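RNA from 3 WT and 3 *Plxnb1*-/- SC cultures, grouped by the genotype in the labels, was sequenced as stranded poly(A) libraries. The authors trimmed reads (Trim Galore 0.6.5), aligned them to mm10 with Bowtie2 2.4.1, removed duplicates and deposited raw counts per gene over exons, made with featureCounts. The authors also deposited FPKM values, which entered only the alternatives. The aligner does not span introns, which lowers counts at exon junctions. The members and lists were chosen with earlier results of these data known.

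Symbols, positions and exon lengths came from GENCODE M21 (GRCm38); the authors used release 25. A gene was tested if 5 or more of the 6 libraries had 2 counts or more on it, a reading of the study's filter. Genotypes were compared with edgeR 4.0.16 (TMM, quasi-likelihood, genotype only) under R 4.3.3, with Benjamini-Hochberg adjustment over all 22318 genes. Calls required adjusted p-values under 0.05 and log2 fold changes beyond 0.25 in either direction. DESeq2 1.42.0 and limma 3.58.1 were alternatives. Totals of 59252048 to 77280964 counts put 3 counts at 0.0388 to 0.0506 CPM. Ratios of genes were tested by two-sided exact permutation (SciPy 1.17.1). Those of *Col6a2* and *Col6a3* to *Col6a1* were the ratios planned. The code was tested on simulated data. Genes named besides the 10 are those that edgeR or DESeq2 called in a list, the largest rise and fall in it at a mean of at least 1 CPM, genes that overlap a member, and neighbours of *Plxnb1* within 250 kb. Principal-transcript lengths, *Sox10* and other markers named at their level only, and DESeq2 with each culture left out were chosen after seeing the data. No protein sequence was analysed here, and some genes that this rule names are not reported here.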

Additional observations from a re-analysis of the deposited data

How the results depend on the processing

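The direction of *Col6a1*, *Col6a2*, *Col6a3*, *Col7a1*, *Col13a1*, *Col14a1* and *Col28a1* was the same under every alternative run, normalization, filter, tool, FPKM scale, replicate block and each culture left out. The number of genes called was 8 by edgeR, 335 by DESeq2, 296 by edgeR without a filter (120 higher, 176 lower), 5 with a replicate block, 3 by limma on log2(FPKM + 0.1) and 3 on log2(FPKM + 1), and it ran from 4 to 25 (25 without WT replicate 2) by edgeR with 1 culture left out. DESeq2 called 281, 124 and 51 without *Plxnb1*-/- replicates 1, 2 and 3 and 946, 162 and 219 without WT replicates 1, 2 and 3. Of the 10 collagens, DESeq2 called 4, edgeR without a filter 4 and DESeq2 with 1 culture left out 4, but 3 without *Plxnb1*-/- replicate 1 and 1 without *Plxnb1*-/- replicate 3. Without a filter, 31191 genes entered and edgeR's prior degrees of freedom were 14 instead of 4.96. Signs turned only near 0: *Col12a1* to -0.0055 with upper-quartile factors, to -0.035 and -0.0092 without *Plxnb1*-/- replicate 3 and WT replicate 3 by edgeR, and to -0.037, -0.0024 and -0.012 without *Plxnb1*-/- replicate 3, WT replicate 2 and WT replicate 3 by DESeq2; *Col15a1* to 0.058 by edgeR and 0.054 by DESeq2 without WT replicate 2; and *Col18a1* to -0.0078 by edgeR and -0.0077 by DESeq2 without *Plxnb1*-/- replicate 2. With 1 culture left out, edgeR's values ran from -0.035 to 0.031 for *Col12a1*, from -0.18 to 0.058 for *Col15a1* and from -0.0078 to 0.063 for *Col18a1*. On log2(FPKM + 1), *Col13a1* shrank to -0.0039. The cause of the different call counts was not tested. Over all tested genes, deviations from the genotype mean in same-numbered replicates correlated at -0.0218, 0.00782 and 0.0653. That does not settle pairing for single genes, and the labels do not say whether replicate numbers pair cultures. With the replicate block, 0 of the 10 were called (adjusted p 0.102 for *Col6a1*, 0.0759 for *Col6a2*, 0.134 for *Col6a3* and 0.0505 for *Col7a1*). The standard errors of these 4 genes were 0.041, 0.043, 0.055 and 0.067 with the block, against 0.080, 0.087, 0.089 and 0.105 without it. They were not smaller with the block for *Col12a1* (0.052 against 0.048) or *Col18a1* (0.0519 against 0.0511). With 3 cultures a genotype, exact tests cannot go below 0.1, and low counts limit the precision of *Col13a1*.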

Other observations

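Other markers varied as well. The summed level of 5 mural cell markers lay between 685 and 839 CPM in WT and between 708 and 720 CPM in *Plxnb1*-/- cultures, and that of 5 endothelial markers between 57.8 and 77.4 CPM and between 60.7 and 66.7 CPM. The sums of 4 perineurial markers (430 to 439 CPM in WT, 461 to 501 CPM in *Plxnb1*-/-), 7 macrophage markers (105 to 128 and 140 to 151 CPM), 6 neuronal markers (146 to 161 and 163 to 183 CPM) and 3 satellite glia markers (762 to 883 and 906 to 933 CPM) did not overlap between genotypes. Most single markers did not separate so. Higher in *Plxnb1*-/- without overlap were 2 of 4 perineurial, 3 of 7 macrophage, 2 of 6 neuronal and 1 of 3 satellite glia markers. Over all tested genes, 9.3% were. *Lyz2* made up most of the macrophage sum and was called higher by DESeq2 (log2 fold change 0.35, adjusted p 0.00595), while *Ptprc* and *Aif1* averaged 1.33 and 0.493 CPM. *Tubb3* made up most of the neuronal sum, and *Rbfox3* averaged 0.441 CPM. *Kcnj10*, at 746 CPM on average, made up most of the satellite glia sum, while *Fabp7* and *Glul* overlapped between genotypes. Among the perineurial markers, *Slc2a1* went the other way, with a log2 fold change of -0.12 and overlap. *Itgb4* is both a perineurial marker and a partner of the anchoring fibril.

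*Col2a1*, the cartilage fibril chain, was at 0.953, 0.735 and 0.621 CPM in WT and at 1.04, 10.9 and 1.38 CPM in *Plxnb1*-/- cultures. Its fitted log2 fold change of 2.53 rested on *Plxnb1*-/- replicate 2 and did not pass the test (adjusted p 0.294 by edgeR).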
